A study of Mus musculus with 6 samples.

Results

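The Zfp-numbered genes are mouse genes named only as zinc finger protein with a number, such as Zfp57. They were taken here as every gene whose symbol is Zfp followed by digits, Zfp36 excepted, with a mean of at least 1 CPM (a gene's reads scaled to the library's total on genes) over the 3 shCtrl libraries. Of 354 such symbols in the files, 288 met this level and are called members below, among 12880 genes of any kind that met it and 37991 genes listed. The other 66 lay below it, and 8 of them had no read in any library. The members were chosen by their measured control CPM, so those levels are given as a description, with no test.

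The RNA came from C2C12 cells, a myoblast line of the C3H mouse strain that fuses into myotubes when serum is lowered. A lentivirus had delivered either a short hairpin that targets Kap1 (gene Trim28), called shKap1, or one that targets luciferase, called shCtrl. They were sequenced as proliferating myoblasts in 10% fetal calf serum (MB, 2 libraries with shKap1 and 2 with shCtrl) and after 48 hours in 2% horse serum with insulin, transferrin and selenium (MT, 1 library with shKap1 and 1 with shCtrl). RNA was cytoplasmic and polyadenylated, and the labels name 1 hairpin for Kap1 and do not say whether replicates are separate cultures. The p-values therefore reflect the spread among these libraries alone, and that spread may be technical.

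C2H2 zinc fingers are small folds around a zinc ion that read DNA, and often RNA or protein, in tandem arrays. Many Zfp proteins carry in front of the fingers a KRAB box, the domain through which they bring KAP1 to DNA, where KAP1 gathers the histone methyltransferase SETDB1, HP1 proteins and deacetylases to silence retroelements and some genes. KRAB zinc finger genes lie in clusters of related copies, and KAP1 is known to bind the 3′ ends of many of these genes themselves. Other Zfp proteins have no KRAB box and act as transcription factors, RNA-binding proteins or ubiquitin ligases.

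A KRAB box was searched for as a pattern in the translated coding sequence ahead of the first finger. It was matched in 167 of the 286 members with a coding transcript, and 119 had no match. A SCAN domain, an interaction domain shared by a smaller family, was matched in 9 members, 1 of which, Zfp110, also had the KRAB match. The median number of C2H2 finger motifs was 12 in members with a KRAB match and 7 in those without, up to 40 in 1 protein. Members clustered in the genome: 74 lay on chromosome 7, 34 on chromosome 17, 23 on chromosome 13, 20 on chromosome 2 and 18 on chromosome 4. In all, 146 stood directly next to another Zfp-numbered gene among protein-coding genes, and 114 of these had the KRAB match. Because of this relatedness, 47 members shared 20% or more of their 50-base words with transcripts of other genes, and their counts are uncertain.

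The members whose levels rose after knockdown in proliferating cells were Zfp78, Zfp977 and Zfp110, whose values follow below. The 250 bases of each upstream of the RefSeq start (GRCm38.p6, 5′ to 3′ on the gene's strand) are shown with those of Zfp346, a member that was lower in the knockdown after 48 hours. Capitals mark matches, on either strand, to CCGGAAG (the ETS motif), a pair of GCGC on either side of any 2 bases (NRF1), GCCATNTTG (YY1), CCAAT (NF-Y) or CAGCTG (an E-box bound by myogenic factors), motifs chosen after the sequences had been seen. The windows are chr7:6363058-6363307 on the plus strand for Zfp78, chr7:42592546-42592795 on the minus strand for Zfp977, chr7:12834511-12834760 on the plus strand for Zfp110, and chr13:55105072-55105321 on the plus strand for Zfp346.
Zfp78: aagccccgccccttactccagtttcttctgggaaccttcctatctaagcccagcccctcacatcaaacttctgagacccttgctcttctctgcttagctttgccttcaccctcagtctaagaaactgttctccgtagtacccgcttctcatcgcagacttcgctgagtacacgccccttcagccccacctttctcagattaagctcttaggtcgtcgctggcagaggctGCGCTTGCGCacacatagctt
Zfp977: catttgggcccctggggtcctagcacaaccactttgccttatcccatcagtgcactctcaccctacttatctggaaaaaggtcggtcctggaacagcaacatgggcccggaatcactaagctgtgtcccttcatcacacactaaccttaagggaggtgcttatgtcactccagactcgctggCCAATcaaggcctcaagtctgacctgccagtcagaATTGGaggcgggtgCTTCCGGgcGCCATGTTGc
Zfp110: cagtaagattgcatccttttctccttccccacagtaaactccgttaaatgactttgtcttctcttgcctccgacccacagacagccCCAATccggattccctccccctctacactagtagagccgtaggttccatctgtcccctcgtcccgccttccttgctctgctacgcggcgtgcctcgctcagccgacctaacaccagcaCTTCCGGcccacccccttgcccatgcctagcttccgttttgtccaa
Zfp346: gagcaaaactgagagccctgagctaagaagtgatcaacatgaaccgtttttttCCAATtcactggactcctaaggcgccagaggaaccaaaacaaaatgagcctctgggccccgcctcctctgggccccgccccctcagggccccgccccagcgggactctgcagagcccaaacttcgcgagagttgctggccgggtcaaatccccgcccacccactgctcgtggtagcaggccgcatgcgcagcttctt
The 3 genes that rose in myoblasts had no motif in common: Zfp78 held only the NRF1 pattern, Zfp977 held the ETS, YY1 and CCAAT patterns, and Zfp110 held ETS and CCAAT. None of the 4 windows held CAGCTG. Of 240 members matched in the RefSeq promoter table, 17.5% held CCGGAAG, against 7.05% of all 27025 promoters there. The promoters of all genes include those of genes not expressed here, and they held fewer CG pairs (median 6, against 10 in members). The ETS pattern was in 21.5% of the 149 windows of members with a KRAB match and in 11.1% of the 90 without. The NRF1 pattern was in 5.37% and 13.3% of them. Of the 38 matched members that rose after knockdown in MT, 18.4% held the ETS pattern, close to the share of all members. CCAAT was in 50% of members and 34.5% of all genes, the NRF1 pattern in 8.33% and 5.09%, GCCATNTTG in 2.5% and 1.38%, and CAGCTG in 14.2% and 12.8%. A match is a run of letters, not a measured binding site.

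In control cells the members were mostly weakly expressed. Their mean control level had a median of 10.7 CPM and ran between 1.03 and 267 CPM; 66 members were under 5 CPM, 23 at 50 CPM or more and 5 at 100 CPM or more. Members with a KRAB match had a median of 6.96 CPM and those without 23.9 CPM. Per kilobase of exon the medians were 1.82 and 4.10 CPM per kb. The 2 members just above the limit were Zfp575 with 1.03 CPM and Zfp78 with 1.20 CPM, and the 2 genes just below it were Zfp882 with 0.978 CPM and Zfp473 with 0.941 CPM.

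The most abundant members had no KRAB match and several are known for roles outside transcription. Per kilobase, the highest control level was that of Zfp706, a small zinc finger protein, with 45.6 CPM per kb. Zfp207, a spindle protein that loads BUB3 onto kinetochores, had 35.8, Zfp740 had 28.7, Zfp106, an RNA-binding protein needed for motor neuron and muscle upkeep in mice, had 25.6, and Zfp598, the ubiquitin ligase that senses collided ribosomes, had 22.2 CPM per kb. By CPM alone the top 8 were Zfp106, Zfp207, Zfp706, Zfp91, Zfp740, Zfp664, Zfp598 and Zfp622, of which Zfp91 is a ubiquitin ligase and Zfp622 works in the making of the large ribosomal subunit. Zfp207 had 238 and 233 CPM in MB shKap1, against 248 and 259 CPM in MB shCtrl, and 225 CPM in MT shKap1, against 208 CPM in MT shCtrl. Zfp706 had 220 and 227 CPM in MB shKap1, against 248 and 240 CPM in MB shCtrl, and 166 CPM in MT shKap1, against 194 CPM in MT shCtrl; both MT libraries lay below all 4 MB libraries. Neither gene passed between knockdown and control in MB or MT.

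The 6 libraries held 36247530 to 49839994 reads on genes. Trim28 stood at 152 and 101 CPM in MB shKap1, against 587 and 417 CPM in MB shCtrl, and at 122 CPM in MT shKap1, against 382 CPM in MT shCtrl. All 3 knockdown libraries were below all 3 control libraries. Of the 6 myoblast markers, none was at 0 in any library. The 6 markers of other cell types summed to 1.82 to 4 CPM. Most of that sum was Cd68, the macrophage marker, at 1.62 to 3.72 CPM, while Adipoq, the adipocyte marker, was at 0 in all 6 libraries. The myoblast markers summed to 461 and 1270 CPM in MB shKap1, against 637 and 1219 CPM in MB shCtrl, and to 1031 CPM in MT shKap1, against 3228 CPM in MT shCtrl. Replicates of both MB groups differed in the same direction in many genes, and the deposited files of replicate 1 and of both MT libraries carry the same extra mark in their names. Counts were therefore fitted with edgeR's quasi-likelihood test both without and with a term for this batch, and a gene is said below to have risen or fallen where its Benjamini-Hochberg adjusted p over all 16472 tested genes was under 0.05 in the fit with the term. All 288 members were among the tested genes, as were 40 of the 66 Zfp-numbered genes below the limit.

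As a whole the members took a slightly larger share of reads after knockdown. They held 0.585% and 0.600% of the counts in MB shKap1, against 0.565% and 0.590% in MB shCtrl, and 0.632% in MT shKap1, against 0.578% in MT shCtrl. Each knockdown library was above its own control, but the MB groups overlapped. Members with a KRAB match held 0.175% and 0.176% in MB shKap1, against 0.155% and 0.174% in MB shCtrl, and 0.206% in MT shKap1, against 0.161% in MT shCtrl. Members without a match held 0.407% and 0.422% in MB shKap1, against 0.408% and 0.414% in MB shCtrl, and 0.424% in MT shKap1, against 0.416% in MT shCtrl. In bulk RNA, fewer cells of a type and less RNA per cell cannot be told apart.

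Proliferating knockdown cells showed few changes among members, and the 3 that passed all rose. Zfp78, Zfp977 and Zfp110 all lie on chromosome 7, have the KRAB match and stand next to another Zfp-numbered gene. They were 3 of 288 members (1.04%), where 2.51% of all tested genes rose and 1.34% fell; 0 members fell. Among the 12880 genes of any kind at 1 CPM or more in controls, 2.52% rose and 1.63% fell. The median log2 change of the members was 0.07, against -0.01 over all tested genes. In the fit without the batch term, 0% of genes and 0 members passed in either direction (edgeR); at an unadjusted p under 0.05, 4 members were higher (Zfp78, Zfp977, Zfp110 and Zfp605) and 0 lower, with 2.03% and 0.722% of all tested genes past that limit. DESeq2 without the term also called 0 members, where it called 0.225% of genes as higher and 0.0789% as lower.

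Zfp78, a KRAB protein with 11 finger motifs, had 4.29 and 3.87 CPM in MB shKap1, against 1.31 and 1.28 CPM in MB shCtrl. It had 3.15 CPM in MT shKap1, against 1.00 CPM in MT shCtrl. Every knockdown library was above every control library, with a wide gap between them. Its log2 change was 1.62 in MB (SE 0.24, edgeR adjusted p = 0.00506) and 1.51 in MT (SE 0.35, adjusted p = 0.0132). No 50-base word of it was found in another gene's transcripts.

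Zfp977, also a KRAB protein with 11 finger motifs, had 3.52 and 2.95 CPM in MB shKap1, against 1.24 and 0.738 CPM in MB shCtrl. It had 4.63 CPM in MT shKap1, against 1.87 CPM in MT shCtrl. Again the 2 groups of 3 libraries did not overlap. The log2 change was 1.70 in MB (SE 0.26, edgeR adjusted p = 0.00626) and 1.17 in MT (SE 0.34, adjusted p = 0.034). Zfp977 shared at least 5% but under 20% of its 50-base words with transcripts of other genes, so its count is less certain than that of Zfp78.

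Zfp110, which encodes NRIF, a protein that interacts with the neurotrophin receptor p75, had 31.5 and 39.3 CPM in MB shKap1, against 21.1 and 22.7 CPM in MB shCtrl. It had 34.4 CPM in MT shKap1, against 23.6 CPM in MT shCtrl. All 3 knockdown libraries were higher than all 3 controls. The log2 change was 0.66 in MB (SE 0.11, edgeR adjusted p = 0.00723) and 0.41 in MT (SE 0.15), where it did not pass (adjusted p = 0.079).

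**Figure D1:**
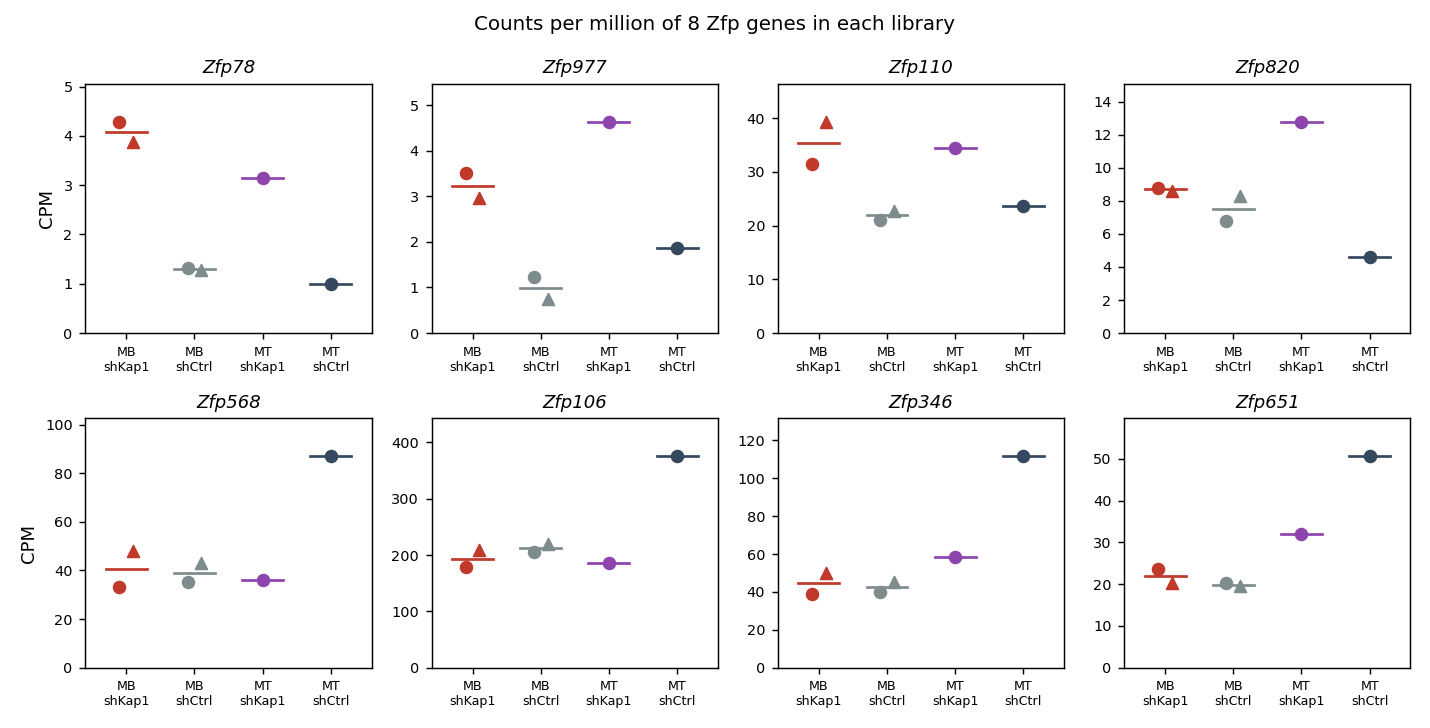
CPM of 8 members in each library, with shKap1 left of shCtrl for MB and for MT; circles are replicate 1 and the lone MT libraries, triangles replicate 2, and bars the group mean. In Zfp78, Zfp977 and Zfp110 every shKap1 point is above every shCtrl point, while in Zfp568, Zfp106, Zfp346 and Zfp651 the MT shCtrl point stands above the other 5.

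Some Zfp-numbered genes below the limit passed the threshold as well, in both directions. Zfp988 had 1.41 and 2.20 CPM in MB shKap1, against 0.524 and 0.910 CPM in MB shCtrl, and 4.03 CPM in MT shKap1, against 0.461 CPM in MT shCtrl. Its knockdown libraries were all above its controls, with a log2 change of 1.31 in MB (edgeR adjusted p = 0.0351) and 2.98 in MT (adjusted p = 0.00073). Zfp467 and Zfp936 also rose in MB, by 1.49 and 1.96 on the log2 scale. In MT, Zfp750 had 0.166 CPM in shKap1, against 1.44 CPM in shCtrl, and fell by 3.24 on the log2 scale (edgeR adjusted p = 0.00428). Of the 40 tested genes below the limit 3 rose and 0 fell in MB (2.51% and 1.34% of all tested genes), and 5 rose and 1 fell in MT (9.09% and 11.2%). Genes this low can enter the test through the libraries in which they are high, so these counts support nothing about the set.

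Without any fit, the 3 pairs of libraries that share no library (MB replicate 1, MB replicate 2 and MT) can be set side by side. Of the 288 members, 200 were higher in shKap1 in the MB replicate 1 pair, 165 in the MB replicate 2 pair and 190 in the MT pair. In all 3 pairs 96 members were higher (33.3%, where the share of all tested genes was 19%) and 27 were lower (9.38%, where it was 17.5%). All 3 knockdown libraries lay above all 3 controls for 26 members (9.03%, against 3.96% of all tested genes). They lay below for 2 members, Zfp697 and Zfp292 (0.694%, against 2.22%). These orders are in log2 CPM with TMM scaling, and by plain CPM the libraries of Zfp697 overlapped slightly. The 5 with the largest mean difference were Zfp78, Zfp977, Zfp575, Zfp980 and Zfp600.

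Zfp575, which had no KRAB match, had 1.76 and 2.11 CPM in MB shKap1, against 1.1 and 0.984 CPM in MB shCtrl, and 2.79 CPM in MT shKap1, against 1.00 CPM in MT shCtrl. Zfp980 had 4.09 and 4.03 CPM in MB shKap1, against 2.86 and 1.65 CPM in MB shCtrl, and 5.43 CPM in MT shKap1, against 2.31 CPM in MT shCtrl. Zfp600 had 4.95 and 5.43 CPM in MB shKap1, against 3.86 and 2.21 CPM in MB shCtrl, and 8.30 CPM in MT shKap1, against 3.37 CPM in MT shCtrl. Their log2 changes in MB, 0.86, 0.85 and 0.77, did not pass, and those in MT, 1.33, 1.1 and 1.16, did (edgeR adjusted p = 0.0352, 0.0499 and 0.0452). Zfp575 overlaps Ethe1 on the other strand, and Zfp980 and Zfp600 shared 71.3% and 81.2% of their 50-base words with other genes, so these counts are uncertain.

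Members with and without the KRAB match differed by pair. With the match, the median difference (log2 CPM, shKap1 minus shCtrl) was 0.16 in the MB replicate 1 pair, -0.01 in the MB replicate 2 pair and 0.35 in the MT pair, with 132, 82 and 132 of 167 members above 0. Without it, the medians were 0.03, 0.09 and -0.01, with 66, 82 and 56 of 119 above 0. Over all tested genes the MT median was 0.02 and both MB medians were within 0.01 of 0. The KRAB members were thus mostly higher in both pairs of the batch that holds the MT libraries and were evenly split in the pair of the other batch. The 288 members share their libraries and are not independent. Across them the differences of the MB replicate 1 and MB replicate 2 pairs had a Pearson r of 0.51 and a Spearman rho of 0.32. Over all tested genes r was 0.44 and rho 0.35. For the MB replicate 1 and MT pairs r was 0.49 and rho 0.48 (0.23 for each over all tested genes). For the MB replicate 2 and MT pairs r was 0.21 (0.24 over all tested genes) and rho 0.03 (0.10 over all tested genes). By rank the members thus showed almost no relation there, and the relation over all tested genes was weak too.

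**Figure D2:**
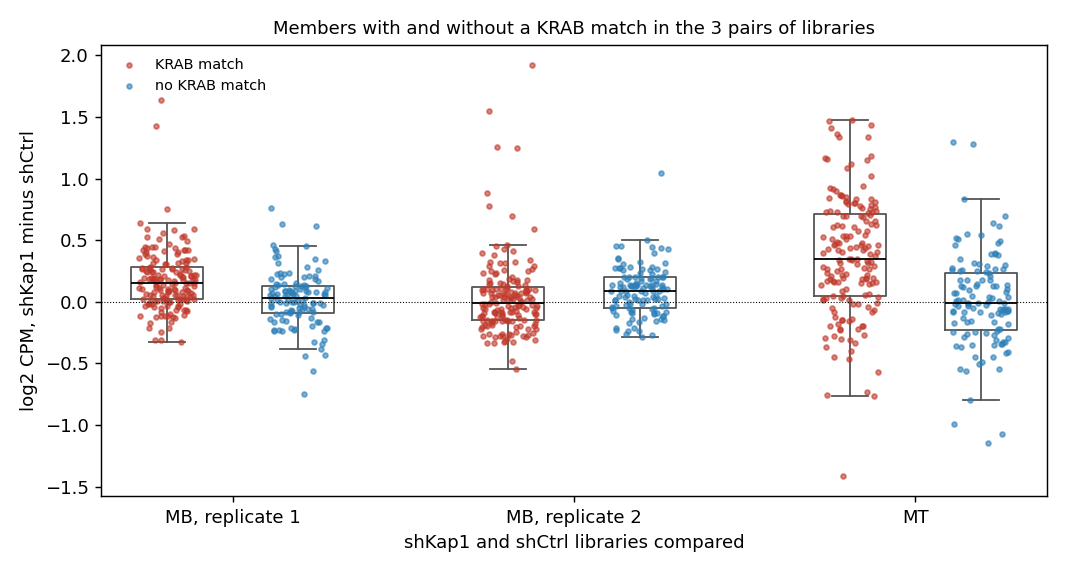
Difference in log2 CPM (shKap1 minus shCtrl) of each member in the 3 pairs of libraries that share none, for members with a KRAB match (red) and without (blue); boxes give quartiles and medians, and whiskers reach the last point within 1.5 box lengths. The red medians are 0.16, -0.01 and 0.35 and the blue ones 0.03, 0.09 and -0.01.

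After 48 hours of differentiation medium, many more members differed between knockdown and control, and most of those with a KRAB match that passed were higher in the knockdown. With the batch term 44 members rose (15.3%, where 9.09% of all tested genes rose) and 11 fell (3.82%, where 11.2% fell). Among the 12880 genes at 1 CPM or more in controls, 10% rose and 12.6% fell. The median log2 change was 0.18, against 0.02 over all tested genes. Scaling by total counts shifted the median of all tested genes to 0.15 and gave 67 members that rose and 7 that fell. RLE scaling gave 29 and 12. The shares of all tested genes that passed with either scaling are not given here. The 9.09% and 11.2% hold for TMM scaling only, so these counts cannot be read against them. All 44 that rose also rose with total-count scaling, and 29 of the 44 with RLE scaling, which took 15 out of the calls, Zfp2, Zfp980 and Zfp600 among them. Without the batch term 0% of genes and 0 members passed (edgeR); at an unadjusted p under 0.05, 16 members were higher and 5 lower, where 3.43% and 4.97% of genes were. DESeq2 without the term called 0 members as higher and 2 as lower, where it called 0.364% and 1.87% of genes. Each arm is 1 library, assumed to vary as the MB libraries do. Of the 6 myoblast markers 3 fell in this comparison and 0 rose. Myog, which starts terminal differentiation, had 30.2 CPM in MT shKap1, against 795 CPM in MT shCtrl. Des had 552 against 1209 CPM and Itga7 203 against 693 CPM. Myf5 was higher in MT shKap1, at 82.4 against 34.8 CPM, but did not pass. Myod1 and Cdh15 were lower in MT shKap1 and did not pass either. The part of the markers in the members' changes was not tested.

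Of the members with a KRAB match 35 of 167 rose (21%) and 4 fell, with a median log2 change of 0.35. Without it, 9 of 119 rose (7.56%) and 7 fell, with a median of -0.01. Level went along with this: at 1 to 5 CPM in control cells 15 of 55 members with the match rose and 0 fell, at 5 to 20 CPM 18 of 92 rose and 0 fell, and at 20 CPM or more 2 of 20 rose and 4 fell. Without the match 2 of 10, 2 of 43 and 5 of 66 rose in these bands, and 0, 1 and 6 fell. The shares that rose were thus 27.3%, 19.6% and 10% with the match and 20%, 4.65% and 7.58% without it. Among all tested genes in the same 3 bands, 9.32%, 10.8% and 9.95% rose and 10.5%, 11% and 13.7% fell. Among members sharing under 5% of their 50-base words with other genes, 22 of 187 rose and 8 fell, and among those sharing 20% or more, 10 of 47 rose and 1 fell. The counts move with scaling: with RLE scaling 24 members with the match, 5 without it and 13 of the 187 rose, and with total-count scaling 52, 15 and 37 did. Scaling shifts all tested genes too, so a move of these counts is not particular to the members. In the 3 bands of level 10, 13 and 1 members with the match rose with RLE scaling, and 21, 27 and 4 with total-count scaling. Shares of all tested genes with these scalings are not given here, so the counts are not set against them.

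**Figure D3:**
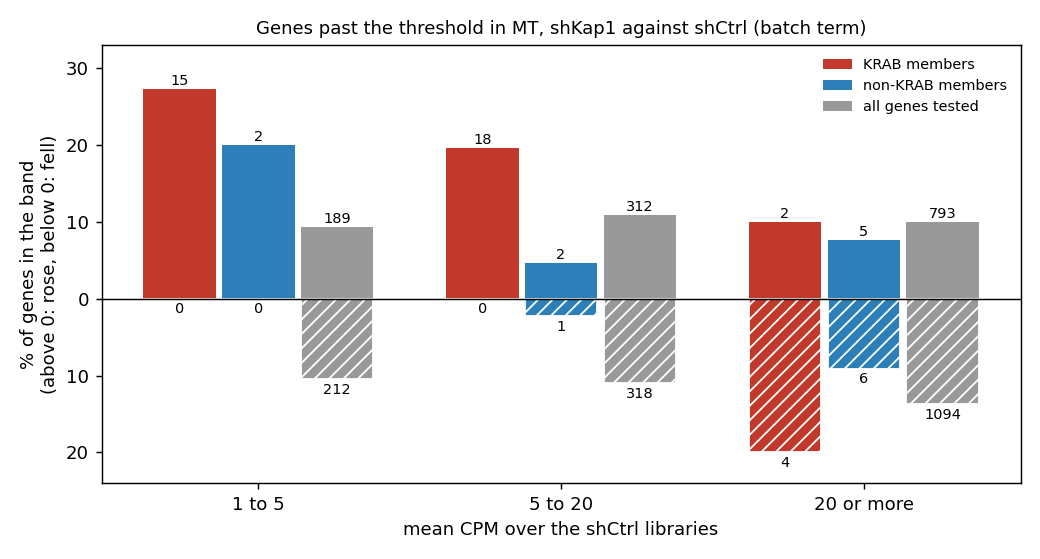
Share of genes past the threshold in MT shKap1 against MT shCtrl (batch term), in % of the genes of each band of mean control CPM; plain bars above 0 rose, hatched bars below 0 fell, and the digits give the number of genes. Members with a KRAB match rose in 15, 18 and 2 genes and fell in 0, 0 and 4.

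The 10 members with the largest rises in MT were Zfp78, Zfp984, Zfp658, Zfp273, Zfp979, Zfp599, Zfp820, Zfp575, Zfp2 and Zfp708, with log2 changes between 1.21 and 1.51; all but Zfp575 and Zfp2 had the KRAB match. Zfp658, with 21 finger motifs, had 4.61 and 5.59 CPM in MB shKap1, against 4.46 and 5.41 CPM in MB shCtrl, and 7.89 CPM in MT shKap1, against 2.63 CPM in MT shCtrl. Zfp599 had 4.67 and 3.92 CPM in MB shKap1, against 4.96 and 3.96 CPM in MB shCtrl, and 6.87 CPM in MT shKap1, against 2.45 CPM in MT shCtrl. Zfp820 had 8.81 and 8.63 CPM in MB shKap1, against 6.77 and 8.31 CPM in MB shCtrl, and 12.8 CPM in MT shKap1, against 4.57 CPM in MT shCtrl.
In all 3 genes the MT shKap1 library was the highest of the 6 and the MT shCtrl library the lowest, while the MB groups were close to each other. Their log2 changes in MT were 1.45 (SE 0.26, edgeR adjusted p = 0.00389), 1.35 (SE 0.28, adjusted p = 0.00715) and 1.35 (SE 0.23, adjusted p = 0.00283). Zfp273 stood at 3.95 CPM in MT shKap1, against 1.32 CPM in MT shCtrl, Zfp979 at 11.6 against 4.09 CPM, and Zfp984 at 4.17 against 1.34 CPM. Both Zfp979 and Zfp984 shared 20% or more of their 50-base words with other genes, so their counts are uncertain. Zfp708, a KRAB protein that binds a retrotransposon family in mouse embryonic stem cells, had 3.72 against 1.46 CPM; 94.9% of its 50-base words were shared and it overlaps Rslcan18 and Gm28557 on the same strand, so its count is uncertain.

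Position was compared next, beside the 9.09% of all tested genes that rose in MT and the 11.2% that fell. Members with the KRAB match next to another Zfp-numbered gene rose in 29 of 114 cases (25.4%) and fell in 3 (2.63%), with a median log2 change of 0.42. Those with the match and no such neighbour rose in 6 of 53 (11.3%, near the share over all genes) and fell in 1 (1.89%), with a median of 0.27. With RLE scaling 21 of the 114 and 3 of the 53 rose, and with total-count scaling 41 and 11. The 9.09% and 11.2% hold for TMM scaling only, and shares of all tested genes with the other scalings are not given here. In 10 runs of neighbouring Zfp genes with at least 4 members, 18 of 56 members rose and 2 fell, and 8 runs had a median above 0; with RLE scaling 10 of the 56 rose and 2 fell, and with total-count scaling 23 and 1. In the chromosome 4 run that holds Zfp984, 3 of 4 members rose and the median was 1.07. Of these 4, 2 shared 20% or more of their 50-base words, namely Zfp984 and Zfp979. In the other chromosome 4 run, with Zfp980 and Zfp600, 3 of 4 rose, with a median of 1.02; all 4 shared 20% or more of their 50-base words, and Zfp980 and Zfp600 did not pass with RLE scaling. In the chromosome 17 run with Zfp820, 3 of 7 rose and all 7 were above 0, with a median of 0.82. In the chromosome 7 run with Zfp568, 0 of 9 rose and 1 fell, and the run with Zfp282 on chromosome 6 had 0 of 6 past the threshold, with a median of -0.09.

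**Figure D4:**
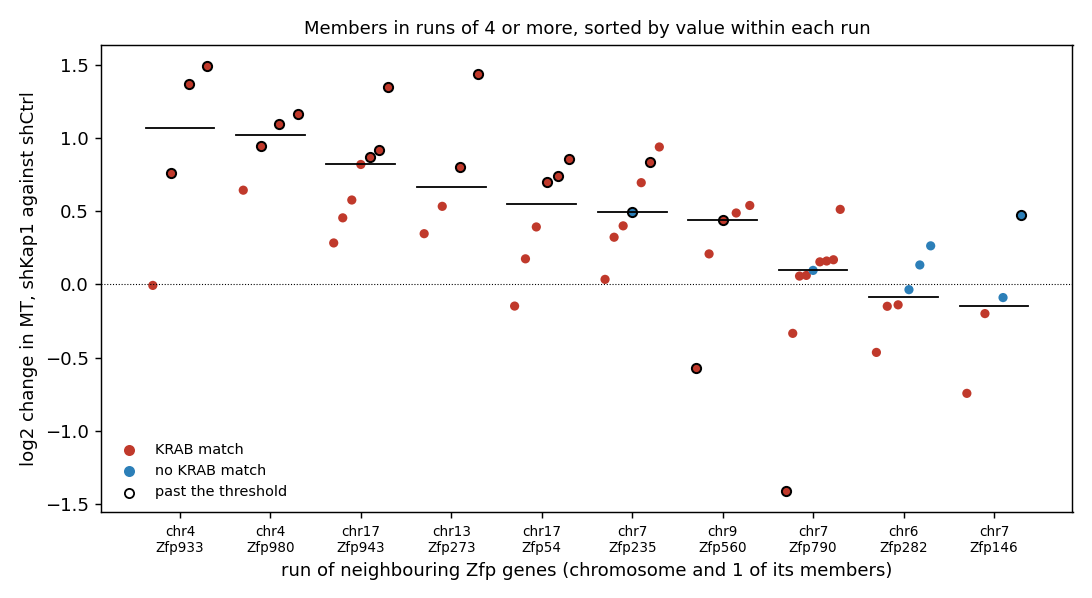
Log2 change in MT (shKap1 against shCtrl, batch term) of the 56 members in 10 runs of neighbouring Zfp genes, with runs ordered by their median (bar) and points sorted by value within a run; ringed points passed the threshold. The 2 chromosome 4 runs have medians of 1.07 and 1.02, and Zfp568 at -1.41 is the lowest point.

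In all, 11 members were lower in MT shKap1 than in MT shCtrl, and 4 of them changed at least 2-fold. Zfp568 had 33.4 and 47.9 CPM in MB shKap1, against 35.1 and 43.1 CPM in MB shCtrl, and 35.9 CPM in MT shKap1, against 86.9 CPM in MT shCtrl. This KRAB protein represses a placental Igf2 transcript in mouse embryos. Its MT shCtrl library was the highest of the 6 by a wide gap, and the log2 change in MT was -1.41 (SE 0.14, edgeR adjusted p = 0.000108).

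Zfp106 had 179 and 209 CPM in MB shKap1, against 205 and 221 CPM in MB shCtrl, and 186 CPM in MT shKap1, against 375 CPM in MT shCtrl. Zfp346, which binds double-stranded RNA, had 38.7 and 50.2 CPM in MB shKap1, against 39.9 and 45.2 CPM in MB shCtrl, and 58.4 CPM in MT shKap1, against 111 CPM in MT shCtrl. Zfp651 had 23.6 and 20.4 CPM in MB shKap1, against 20.2 and 19.5 CPM in MB shCtrl, and 32.0 CPM in MT shKap1, against 50.6 CPM in MT shCtrl. In all 3 the MT shCtrl library was the highest of the 6; the MT shKap1 library was within the MB range for Zfp106 and above it for Zfp346 and Zfp651. The log2 changes in MT were -1.15 (SE 0.14, edgeR adjusted p = 0.000327), -1.07 (SE 0.14, adjusted p = 0.000555) and -0.80 (SE 0.14, adjusted p = 0.00329). Each of these genes overlaps a gene on the other strand (Gm26899, Gm17617 and E530011L22Rik, in this order). Whether counting used strand was not stated in the labels, so the reads of such pairs cannot be told apart. For Zfp106, 24.7% of its 50-base words were also shared with transcripts of other genes.

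The others that fell were Zfp697 (-1), Zfp871 (-0.76), Zfp26 (-0.57), Zfp275 (-0.56), Zfp609 (-0.55), Zfp445 (-0.45) and Zfp292 (-0.45, all log2). With total-count scaling the calls of Zfp26, Zfp609, Zfp445 and Zfp292 were lost. Zfp697 had 5.85 and 4.92 CPM in MB shKap1, against 8.39 and 5.73 CPM in MB shCtrl, and 3.53 CPM in MT shKap1, against 6.44 CPM in MT shCtrl. By these CPM the knockdown and control libraries overlapped slightly, at 5.85 and 5.73 CPM. Only after TMM scaling did all 3 knockdown libraries lie below all 3 controls. Zfp445, which guards imprinted loci together with Zfp57, had 31.1 CPM in MT shKap1, against 38.6 CPM in MT shCtrl. Zfp57 itself had 36.1 CPM in MT shKap1, against 27.3 CPM in MT shCtrl, and did not pass (log2 change 0.26, SE 0.15, edgeR adjusted p = 0.243).

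The test of the difference between the knockdown changes in MT and in MB passed for 14 members: 8 with a more positive change in MT (2.78%, where 3.82% of all tested genes were) and 6 with a more negative one (2.08%, where 6.63% were). Of the genes at 1 CPM or more, 4.77% and 8.12% passed. Total-count scaling gave 10 and 4 members (3.47% and 1.39%), where 5.58% and 5.13% of all tested genes passed with that scaling. Without the batch term 0% of genes and 0 members passed (edgeR), 6 members being higher and 5 lower at an unadjusted p under 0.05, where 1.71% and 3.3% of genes were; DESeq2 without it called 0 members, where it called 0.121% and 0.898% of genes. The 5 most positive differences were those of Zfp984, Zfp599, Zfp658, Zfp820 and Zfp979, and the 5 most negative those of Zfp568, Zfp346, Zfp106, Zfp651 and Zfp26. Zfp599 changed by -0.08 in MB and 1.35 in MT, a difference of 1.43 (SE 0.33, edgeR adjusted p = 0.0225). Zfp568 changed by 0.01 in MB and -1.41 in MT, a difference of -1.42 (SE 0.18, adjusted p = 0.000698). Zfp78 and Zfp977 were higher in the knockdown in both, 1.62 and 1.70 in MB and 1.51 and 1.17 in MT, and their differences of -0.11 (SE 0.43) and -0.52 (SE 0.43) did not pass.

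**Figure D5:**
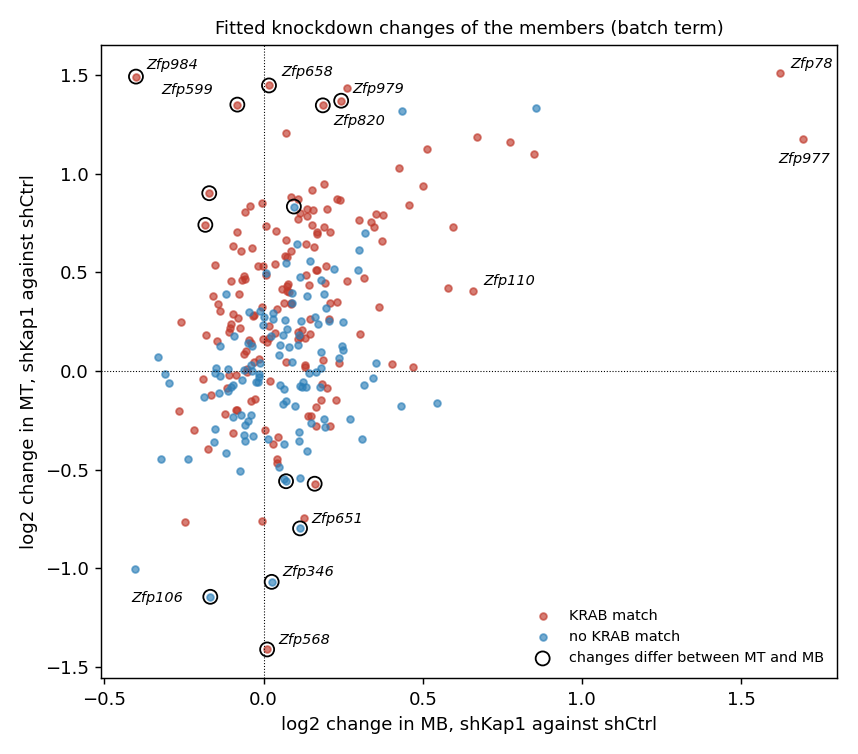
Fitted log2 change (shKap1 against shCtrl, batch term) in MB (horizontal axis) and MT (vertical axis) of the 286 members with a coding transcript; red points have a KRAB match, and rings mark the 14 whose changes differ between MT and MB. Zfp78 and Zfp977 are high on both axes, while Zfp568 and Zfp658 lie near 0 in MB.

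Control differentiation, MT shCtrl against MB shCtrl, moved members in both directions. In this comparison 37 members rose (12.8%, where 22.3% of all tested genes rose) and 31 fell (10.8%, where 22.6% fell; of genes at 1 CPM or more, 22.8% rose and 27.6% fell), with a median log2 change of -0.03, against -0.01 over all tested genes. Members with the KRAB match rose in 16 and fell in 15 of 167 cases, and those without rose in 21 and fell in 16 of 119. Without the batch term 0% of genes and 0 members passed (edgeR), with 16 members higher and 10 lower at an unadjusted p under 0.05, where 13.4% and 11.9% of genes were; DESeq2 without it called 8 members as higher and 3 as lower, where it called 7.8% and 6.59% of genes.

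The 10 largest rises were those of Zfp3, Zfp810, Zfp346, Zfp521, Zfp568, Zfp651, Zfp667, Zfp112, Zfp950 and Zfp14. Zfp346 had 111 CPM in MT shCtrl, against 39.9 and 45.2 CPM in MB shCtrl, a log2 change of 1.56 (SE 0.13, edgeR adjusted p = 7.22e-06). Zfp521, a transcriptional cofactor of immature blood and neural cells, had 19.5 CPM in MT shCtrl, against 7.87 and 7.16 CPM in MB shCtrl, a log2 change of 1.43 (SE 0.20, adjusted p = 0.000234). Zfp3 had 3.97 CPM in MT shCtrl, against 1.24 and 2.31 CPM in MB shCtrl, so its change of 1.72 rests on controls that differ by nearly 2-fold.
The 10 largest falls were those of Zfp961, Zfp52, Zfp334, Zfp7, Zfp934, Zfp984, Zfp599, Zfp365, Zfp428 and Zfp213. Without replicate 1 of MB shCtrl, in the fit without the batch term, the changes of Zfp984, Zfp334, Zfp934 and Zfp365 were 0.22, -2.39, -0.54 and -0.56. With all libraries and the batch term they were -1.02, -1.25, -1.09 and -0.90. Among the rises, Zfp3 was at 0.78 and Zfp667 at 0.81, where the fit with the term gave 1.72 and 1.26. The 2 sets of values thus differ in the fit as well as in the libraries. MB shCtrl is then replicate 2 alone, set against an MT library of the other batch. The values without replicate 1 therefore also hold the difference between replicates. Zfp961, a KRAB protein, had 6.24 CPM in MT shCtrl, against 15.8 and 14.2 CPM in MB shCtrl, and Zfp7 had 11.7 CPM, against 26.7 and 25.4 CPM. Their log2 changes were -1.33 (SE 0.18, edgeR adjusted p = 0.000256) and -1.11 (SE 0.16, adjusted p = 0.00029). Both MB control libraries lay well above the MT control in these 2 genes. Zfp961 overlaps Cyp4f18 on the other strand and Zfp7 overlaps Gm49527 on the same strand, so both counts are uncertain.

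Knockdown cells showed another balance when MT shKap1 was compared with MB shKap1: 40 members rose (13.9%, where 16.6% of all tested genes rose) and 20 fell (6.94%, where 16.5% fell; of genes at 1 CPM or more, 18.2% rose and 20.4% fell), and total-count scaling gave 52 and 11. Such a change of scaling shifts all tested genes and not the members alone, and the shares of all tested genes with it are not given here. With the KRAB match 27 of 167 rose and 5 fell, and without it 13 of 119 rose and 15 fell. Without the batch term 0% of genes and 0 members passed (edgeR), with 12 members higher and 7 lower at an unadjusted p under 0.05, where 7.44% and 7.8% of genes were; DESeq2 without it called 0 as higher and 1 as lower, where it called 2.17% and 2.94% of genes. The MT knockdown comparison and control differentiation share the MT shCtrl library, so the values of the members that moved in both can only be set side by side. Zfp568 changed by 1.39 with differentiation in control cells, -0.03 with differentiation in knockdown cells and -1.41 between knockdown and control in MT. For Zfp346 the 3 values were 1.56, 0.46 and -1.07, for Zfp106 0.93, -0.05 and -1.15, and for Zfp651 1.31, 0.40 and -0.80. In the other direction, Zfp7 had -1.11, -0.04 and 0.90, and Zfp599 -0.97, 0.46 and 1.35.

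By known role, members of 3 lists were compared; over all tested genes 9.09% rose and 11.2% fell in MT, and 2.51% and 1.34% in MB. Of 7 KRAB proteins with a described target, 1 rose in MT after knockdown (Zfp708) and 2 fell (Zfp568 and Zfp445), and 0 passed in MB. Zfp809, which silences Moloney-type retroviruses in mouse embryonic cells, had 9.84 and 7.21 CPM in MB shKap1, against 7.68 and 5.73 CPM in MB shCtrl, and 8.14 CPM in MT shKap1, against 5.34 CPM in MT shCtrl. Its groups overlapped and its changes of 0.31 and 0.47 did not pass. Of 21 DNA-binding members without a KRAB box, 0 rose and 1 fell in MT (Zfp292), with a median of -0.11, and 0 passed in MB; Zfp281, a GC-box factor of stem cells, stayed between 36.2 and 39.6 CPM in all 6 libraries. In control differentiation 5 of them rose and 3 fell (23.8% and 14.3%, where 22.3% and 22.6% of all tested genes did). Of 12 members with roles in RNA, ribosomes or ubiquitin, 1 rose in MT after knockdown (Zfp277, 0.55) and 2 fell (Zfp106 and Zfp346), with a median log2 change of -0.01. With so few members, 1 and 2 of 12 are close to the shares over all genes.

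Among 28 tested genes of the KAP1 machinery, none of them a member, 2 rose (Trim24 and Morc3) and 1 fell in MB, the fall being Trim28, the target of the hairpin. In MT 2 rose (Trim24 and Setdb1) and 3 fell (Trim28 again, Dnmt3a and Cbx5), 7.14% and 10.7% of the list, where 9.09% and 11.2% of all tested genes did. Without Trim28, whose fall is the aim of the hairpin, 2 of 27 rose and 2 fell in MT, 7.41% each. In MB 2 of these 27 rose and 0 fell. The list's median log2 change, Trim28 included, was -0.05 in MB and -0.00 in MT. Trim24, a TRIM-family relative that forms complexes with KAP1, had 51.2 and 96.1 CPM in MB shKap1, against 31.6 and 53.5 CPM in MB shCtrl, and 117 CPM in MT shKap1, against 32.5 CPM in MT shCtrl. The MB groups overlapped, and within each batch the knockdown was higher; the log2 change was 0.74 in MB and 1.71 in MT. Setdb1 had 149 CPM in MT shKap1, against 82.8 CPM in MT shCtrl, a log2 change of 0.71 (edgeR adjusted p = 0.00803). Dnmt3a, a DNA methyltransferase, had 23.9 CPM in MT shKap1, against 32.8 CPM in MT shCtrl, a log2 change of -0.59 (adjusted p = 0.0166). Cbx5, which encodes HP1 alpha, had 284 CPM in MT shKap1, against 372 CPM in MT shCtrl, a log2 change of -0.52 (adjusted p = 0.0301).

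Replicates also differed in some members. In both MB groups 16 members were higher in replicate 2 by over 0.5 on the log2 scale and 8 were lower by as much, 8.33% in all, where 19.1% of tested genes were. Zfp608 stood at 11.3 CPM (replicate 1) and 24.7 CPM (replicate 2) in MB shKap1, and at 14.7 and 28.8 CPM in MB shCtrl. Zfp984 went the other way, with 2.21 and 0.824 CPM in MB shKap1 and 2.69 and 1.16 CPM in MB shCtrl. Across the 288 members the replicate 2 minus replicate 1 differences of the 2 groups correlated at r = 0.74, each point sharing its gene and batches.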

How the data were processed

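RNA-seq of cytoplasmic polyadenylated RNA from 6 C2C12 libraries was analysed. Whole-number read counts per Ensembl gene were used as deposited. The submitters' processing notes name TopHat2 2.0.11, HTSeq and the build mm9; they do not state the annotation release, the strand setting or how multiply mapped reads were treated. Groups came from the sample titles. Symbols, exon overlaps, gene order and coding sequences came from GENCODE M21 (GRCm38) by Ensembl identifier, and upstream sequences from RefSeq; no mm9 coordinates were used.

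Members and lists were chosen with earlier results of these data known. Counts were fitted over 16472 genes with edgeR 4.0.16 in R 4.3.3 (TMM, robust quasi-likelihood, filterByExpr), with 1 mean per group, without a batch term (2 residual degrees of freedom, biological coefficient of variation 32.9%) and with one (1 degree of freedom, 9.74%). Batch 1 holds replicate 1 of both MB groups and both MT libraries, batch 2 replicate 2; this follows an extra mark in file names that the labels do not explain. With 2 MB pairs only, whether replicate numbers pair the samples rests on that mark and on the replicate differences shared by both groups. Pair differences are log2 CPM with TMM and a prior count of 2. DESeq2 1.42.0 was an alternative. Reads in no gene, 5.18% to 8.07% of those on genes, in no gene or ambiguous, were left out, as were ambiguous ones. The scripts were tested on simulated data. Named members were all those past the threshold in a direction if at most 12, otherwise the 10 largest (the 5 largest each way for the difference between MT and MB); the 8 most abundant and the 2 nearest the limit on each side; members of the role lists; the 5 largest each way without overlap; and the KAP1 genes. Other names (Zfp605 and the genes of runs and replicate differences) were picked after their values were seen. The protein stretches planned for the KRAB box were not analysed here.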

Additional observations from a re-analysis of the deposited data

Results flagged for a closer look

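For 14 members the change between shKap1 and shCtrl differed between MT and MB by a test of the difference itself (edgeR, batch term, Benjamini-Hochberg adjusted p under 0.05). The change in MT minus that in MB was -1.42 for Zfp568, -1.10 for Zfp346, -0.98 for Zfp106, -0.91 for Zfp651, -0.73 for Zfp26 and -0.63 for Zfp275 on the log2 scale. It was 1.89 for Zfp984, 1.43 for both Zfp599 and Zfp658, 1.16 for Zfp820, 1.13 for Zfp979, 1.07 for Zfp7, 0.92 for Zfp52 and 0.74 for Zfp637. Of these 14, 0 passed without the batch term, and in both MT arms the change rests on 1 library. Zfp984 shared 54.5% and Zfp979 27.1% of their 50-base words with other genes, so those 2 counts are uncertain. Zfp979 no longer passed this test with RLE scaling, and Zfp26 and Zfp275 no longer passed it with total-count scaling. In the fit without the batch term, leaving out 1 MB library at a time gave 1.15 to 2.72 for Zfp984, 0.71 to 1.49 for Zfp979 and -1.11 to -0.41 for Zfp26, with the lowest size in each case without replicate 1 of MB shCtrl. Zfp26 was at -1.11 without replicate 2 of MB shCtrl and at -0.44 without replicate 2 of MB shKap1.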

How the results depend on the processing

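The number of members past the threshold depended on the term for batch, which serves as the replicate block. Without the term 0 members passed in each of the 5 comparisons (edgeR), also when any 1 MB library was left out; with the replicate block 3 passed in MB knockdown, 55 in MT knockdown, 68 in control differentiation, 60 in knockdown differentiation and 14 in the difference between MT and MB, so those counts became 0 with no replicate block. Without the term DESeq2 called 2 in MT knockdown, 11 in control differentiation and 1 in knockdown differentiation, and fitting without a filter on low counts called 2 in control differentiation. With the term DESeq2 called 1, 7, 20, 9 and 3 in the same 5 comparisons. The share of all genes called in that fit is not given here, so these counts say nothing about the members as a set. In MB knockdown the count of 3 became 7 with no filter on low counts. The fits with no filter tested 24706 genes, and the share of them called is not given here. Their counts therefore say nothing about the members as a set. With members taken by their mean over all 6 libraries the count was 5 of 296. The added genes are under 1 CPM in controls and enter through their knockdown libraries, so that this rise is built into the rule. With members at 5 CPM or more it was 1 of 222. In the fit behind the last 2 counts 2.51% of all tested genes rose and 1.34% fell. The median log2 change of members in MT knockdown was 0.32 with total-count scaling, against 0.18. Of 54 log2 changes of named members, 1 changed sign: Zfp984 in control differentiation ranged between -0.97 and 0.22 when 1 MB library was left out, the 0.22 being without replicate 1 of MB shCtrl. All 54 kept their direction, but none passed, with no replicate block. RLE scaling took 2 of them and total-count scaling 5 out of the calls. Leaving out libraries was not run with the batch term, since no residual degree of freedom remains. At the depth of these libraries 3 reads correspond to 0.0602 to 0.0828 CPM.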
